A study of Mus musculus with 22 samples.

Results

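The CREB1 sites present in both treatments were the regions of the CREB1 vehicle peak list that overlapped a region of the CREB1 dDAVP peak list by at least 1 bp. There were 397 of them, out of 785 CREB1 vehicle peaks and 3801 peaks in all 4 lists of the series. They made up 50.6% of the vehicle list (Wilson 95% interval 47.1 to 54.1) and were overlapped by 398 of the 406 dDAVP peaks, 98.0% of that list (96.2 to 99.0). The other 388 vehicle peaks had no overlapping dDAVP peak and are called vehicle-only sites here. The shared sites were thus chosen by the positions of the peaks in both CREB1 lists, so their presence in both lists, their widths and the shift between treatments are given as a description, with no test.

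Binding was mapped by ChIP-seq, the sequencing of DNA that an antibody pulls down with the factor bound to it, in mpkCCD clone 11, a single clone of a mouse cortical collecting duct line. Cells received 0.1 nM dDAVP, a vasopressin analog that acts through the V2 receptor, or vehicle, for 30 min. CREB1 was immunoprecipitated in 4 dDAVP and 4 vehicle samples and C/EBP beta in 2 samples of each, beside 10 inputs without antibody. Each antibody and treatment was represented by 1 deposited peak list, so there is no replicate error, the read depth is unknown, and the identity of the cells could not be checked against marker genes. Every interval below is a Wilson 95% interval that covers the counting of peaks, genes or promoters alone, in these lists and not between cultures.

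CREB1 is a basic leucine zipper factor that binds as a dimer to the cAMP response element (CRE), the palindrome TGACGTCA, and more weakly to its half-site TGACG. Vasopressin acts on collecting duct cells through the V2 receptor, cAMP and protein kinase A, which phosphorylates CREB1 and lets it recruit the coactivators CBP and p300. In many cell types CREB1 is known to sit on unmethylated CRE promoters before any stimulus, and methylation of the CpG in the middle of the CRE is known to hinder its binding.

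The promoter sequences of 5 shared sites are shown first, since they carry what most of the sites held: 1 or more CREs or half-sites within a stretch rich in CpG, just upstream of a start site. Sequences are from RefSeq on build GRCm38.p6 and run 5′ to 3′ on the strand of the gene, from 250 bp before to 50 bp after the transcription start site (TSS). Capitals mark every CRE and every half-site on either strand (CGTCA is the half-site read on the other strand). Fos is at chr12:85473640-85473939, plus strand. Pcna is at chr2:132253131-132253430, minus strand. H4c1 is at chr13:23761200-23761499, minus strand. Nup133 is at chr8:123949216-123949515, minus strand. Rpl34 is at chr3:130730349-130730648, minus strand.
Fos: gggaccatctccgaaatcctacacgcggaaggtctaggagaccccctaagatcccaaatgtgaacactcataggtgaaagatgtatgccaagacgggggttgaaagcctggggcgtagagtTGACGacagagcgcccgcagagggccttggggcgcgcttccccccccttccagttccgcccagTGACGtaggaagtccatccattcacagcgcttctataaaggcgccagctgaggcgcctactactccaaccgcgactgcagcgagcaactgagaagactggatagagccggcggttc
Pcna: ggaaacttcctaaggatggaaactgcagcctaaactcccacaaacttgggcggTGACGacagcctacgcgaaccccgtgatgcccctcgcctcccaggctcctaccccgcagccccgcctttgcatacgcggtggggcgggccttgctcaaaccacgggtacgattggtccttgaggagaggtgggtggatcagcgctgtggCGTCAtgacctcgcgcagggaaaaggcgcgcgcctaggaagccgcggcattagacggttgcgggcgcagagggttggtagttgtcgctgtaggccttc
H4c1: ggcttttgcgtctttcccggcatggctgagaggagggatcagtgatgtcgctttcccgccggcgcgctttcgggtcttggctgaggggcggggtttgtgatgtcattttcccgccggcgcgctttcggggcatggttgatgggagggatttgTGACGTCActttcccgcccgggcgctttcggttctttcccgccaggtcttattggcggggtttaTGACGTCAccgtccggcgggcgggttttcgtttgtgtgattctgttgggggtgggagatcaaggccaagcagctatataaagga
Nup133: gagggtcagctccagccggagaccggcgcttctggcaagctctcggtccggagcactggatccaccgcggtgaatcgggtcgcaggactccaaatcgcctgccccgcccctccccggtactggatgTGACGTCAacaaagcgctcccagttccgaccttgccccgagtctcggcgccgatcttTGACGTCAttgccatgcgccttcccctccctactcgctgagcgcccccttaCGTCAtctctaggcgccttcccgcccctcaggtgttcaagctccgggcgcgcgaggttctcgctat
Rpl34: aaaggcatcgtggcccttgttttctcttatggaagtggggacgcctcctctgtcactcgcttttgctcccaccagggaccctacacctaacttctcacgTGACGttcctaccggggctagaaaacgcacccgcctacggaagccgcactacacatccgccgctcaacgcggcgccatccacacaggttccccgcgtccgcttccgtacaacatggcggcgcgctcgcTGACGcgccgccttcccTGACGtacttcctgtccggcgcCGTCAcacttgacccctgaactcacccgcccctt

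Fos encodes a subunit of the AP-1 factor and is an immediate early gene. Its window held 2 half-sites, TGACGACA and TGACGTAG, and no full CRE. The Fos site was 250 bp wide after dDAVP and 373 bp wide after vehicle (chr12:85473588-85473960, mm10, as are all peak positions), with its vehicle centre 116 bp upstream of the TSS. A vehicle-only CREB1 peak, 244 bp wide, lay 18487 bp upstream of Fos. Pcna, the sliding clamp of DNA replication, also held 2 half-sites and no full CRE, and its site was 168 bp wide after dDAVP and 383 bp after vehicle (chr2:132253117-132253499). The site at H4c1, a histone H4 gene, held 2 full CREs and was 452 bp wide after dDAVP and 593 bp after vehicle (chr13:23761130-23761722). The same site lay within 1000 bp of the histone H3 gene H3c1. Nup133, a scaffold protein of the nuclear pore, had 2 full CREs and 1 further half-site at a site of 380 bp after dDAVP and 440 bp after vehicle. Rpl34, a protein of the large ribosomal subunit, had no full CRE and 4 half-sites at a site of 271 bp after dDAVP and 322 bp after vehicle. Of these 5 promoters, H4c1 and Nup133 thus held the palindrome, and the windows of Fos, Pcna and Rpl34 held half-sites alone. The windows covered 80.4% of the Fos vehicle peak and 78.3% of that at Pcna, and peak bases outside the windows were not searched.

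The full CREs of the 12 widest shared sites with a CRE in the promoter window are set side by side with 10 bases on each side, on the strand of the gene, to show the flanks that went with the palindrome. Where a window held 2 CREs, the one nearer to the centre of the vehicle peak is shown. Capitals mark the CRE.
H4c1, chr13:23761330-23761357, minus strand: gagggatttgTGACGTCActttcccgcc
Trp53inp2, chr2:155381805-155381832, plus strand: ggcccctttgTGACGTCAcaatcagctg
Cep57, chr9:13827157-13827184, minus strand: cgctaccttgTGACGTCAccgagagagg
Mettl4, chr17:94750074-94750101, minus strand: ccgcccgcgcTGACGTCAggattgcgac
Larp7, chr3:127553330-127553357, minus strand: gctccgcctaTGACGTCAgcaacgaacc
Ddx49, chr8:70302547-70302574, minus strand: ggtctctccgTGACGTCAcattcctccg
Senp2, chr16:22009399-22009426, plus strand: cggaagaaggTGACGTCAacggcttcta
Aasdh, chr5:76905506-76905533, minus strand: gacgctggagTGACGTCAcgggcgcccg
Xab2, chr8:3621448-3621475, minus strand: cccgggtctgTGACGTCAtcttccggcg
Tinf2, chr14:55681856-55681883, minus strand: ggggacctcgTGACGTCAcagctccctc
Ing3, chr6:21949516-21949543, plus strand: accggccggtTGACGTCAtcgctgcaga
Nup133, chr8:123949315-123949342, minus strand: cgccgatcttTGACGTCAttgccatgcg

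All 12 had the same palindrome, by the choice of the set. The place of the CRE centre relative to the TSS, negative when upstream, differed between these promoters, with Larp7, a protein of the 7SK ribonucleoprotein, at 5.5 bp and Xab2, a splicing and DNA repair factor, at -165.5 bp. The others lay between -94.5 and -37.5 bp. They included Trp53inp2, an autophagy regulator, Senp2, a SUMO protease, Tinf2, a telomere protein of the shelterin complex, and Ing3, a subunit of a histone acetyltransferase complex.

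Shared sites were narrow regions whose dDAVP peak nearly always lay within the vehicle peak. The dDAVP peaks at shared sites had a median width of 252 bp (quartiles 212 to 294, range 32 to 452), and the vehicle peaks at the same sites a median of 343 bp (303 to 396, range 182 to 827). Vehicle-only peaks had a median of 244 bp (212 to 274.5, range 104 to 511). The dDAVP peak was narrower than the vehicle peak at 391 of 397 shared sites, of equal width at 1 and wider at 5, and it lay wholly inside the vehicle peak at 349. Its width was 0.749 of the vehicle width in the median (0.667 to 0.816). The centres of both peaks were close, with a median shift of 15 bp, and lay within 50 bp of each other at 377 sites. At 1 site the vehicle peak overlapped 2 dDAVP peaks. In all, the peaks at shared sites covered 102.4 kb in the dDAVP list and 140.5 kb in the vehicle list. The number of reads behind either list is unknown, and how the replicates were combined is not given in the sources used here, so the part of depth and of the combining step in these widths was not tested.

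**Figure D1:**
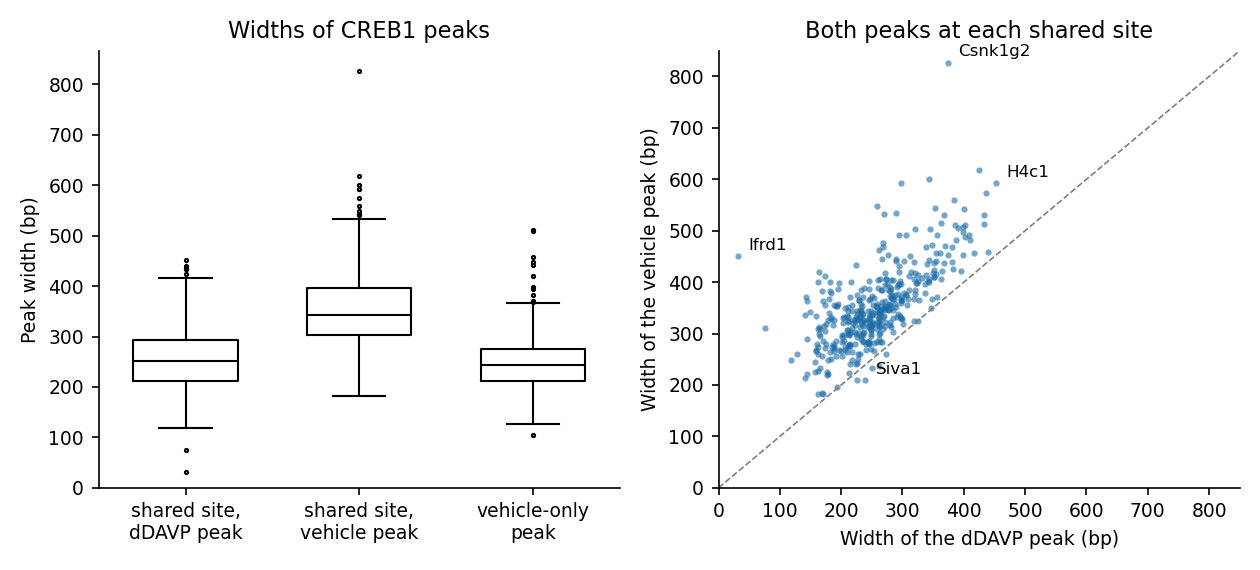
Left, boxes of peak width in bp (median, quartiles, whiskers to 1.5 interquartile ranges, points beyond) for shared sites in the dDAVP list, shared sites in the vehicle list and vehicle-only sites. Right, each point is 1 of the 397 shared sites with its dDAVP width on the x axis and its vehicle width on the y axis; nearly all points lie above the dashed line of equal width.

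The widest shared site was at Csnk1g2, a casein kinase 1 isoform, at 374 bp after dDAVP and 827 bp after vehicle. Next came Osbp, an oxysterol-binding protein, at 425 bp after dDAVP and 618 bp after vehicle, and Trmt10a, a tRNA methyltransferase, at 344 bp after dDAVP and 600 bp after vehicle. BC005624 and the deubiquitinase gene Usp20 shared a site of 298 bp after dDAVP and 592 bp after vehicle. Rfx1, a DNA-binding factor of the RFX family, had a site of 436 bp after dDAVP and 574 bp after vehicle, 216 bp upstream of an alternative TSS inside the gene. The rest of the 12 widest within 1000 bp of a TSS were at Oaz1, an inhibitor of polyamine synthesis, Tpr, a nuclear pore basket protein, the splicing factor gene Sf1, the centrosomal gene Cep57, Esyt2, a tether of the endoplasmic reticulum to the plasma membrane, and H4c1 and Trp53inp2 above. A site on an unplaced contig, 290 bp after dDAVP and 534 bp after vehicle, was wider after vehicle than those at Cep57 and Esyt2. The 4 narrowest within 1000 bp of a TSS were at Ralgapa1, Nup155, Rab40c and Pnpla8, at 162 to 193 bp after dDAVP and 182 to 197 bp after vehicle. The median vehicle width was 334 bp at the 87 shared sites with a CRE and 346 bp at 228 sites without one, and Ralgapa1, among the narrowest, held 2 CREs.

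The ratio of widths was smallest at Ifrd1, a transcriptional coregulator, where the dDAVP peak spanned 32 bp of a 450 bp vehicle peak, a ratio of 0.071. Tyw1, an enzyme of wybutosine synthesis in tRNA, followed with 75 bp after dDAVP and 311 bp after vehicle, then Map9, Pja2 and Sec23b with ratios of 0.385 to 0.399. The ratio was largest at Siva1, with 239 bp after dDAVP and 209 bp after vehicle (1.144), and Diaph3, Irf2bp2 and Snapc1 also had the wider peak after dDAVP. It was under 0.5 at 23 of the 397 sites. Ifrd1, Stk11 and Tyw1 were the sites just inside the rule, with 32, 70 and 75 bp of overlap. The vehicle peaks just outside it were at Mmab, Elp5 and Rab10, which missed the nearest dDAVP peak by 128, 137 and 214 bp.

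Most shared sites lay at the start of a gene. Of the 395 shared sites on chromosomes 1 to 19 and X, 371 had their centre within 1000 bp of the TSS of a protein-coding gene (or of either gene end where the promoter table had no window for the gene), 93.9% (91.1 to 95.9). Of the 388 vehicle-only sites, 358 did, 92.3% (89.2 to 94.5). By the TSS of the promoter table alone, 326 of 393 shared sites lay within 1000 bp, 83% (78.9 to 86.3). The same held for 312 of 385 vehicle-only sites, 81% (76.8 to 84.6). Shared sites lay closer to the TSS. Their centres were within 100 bp of a TSS of the promoter table at 255 of 393 sites, 64.9% (60.0 to 69.4), and those of vehicle-only sites at 196 of 385, 50.9% (45.9 to 55.9). Among sites within 1000 bp of a TSS, the median centre relative to the TSS was at -32.5 bp at 326 shared sites (quartiles -74.75 and -3) and at -57 bp at 312 vehicle-only sites (-122.25 and -5). The centre was on the upstream side at 251 of 326 shared sites (77.0%) and 245 of 312 vehicle-only sites (78.5%). In gene terms, 448 of 21631 protein-coding genes (2.07%) had an end within 1000 bp of the centre of a shared site, and 407 (1.88%) of that of a vehicle-only site.

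**Figure D2:**
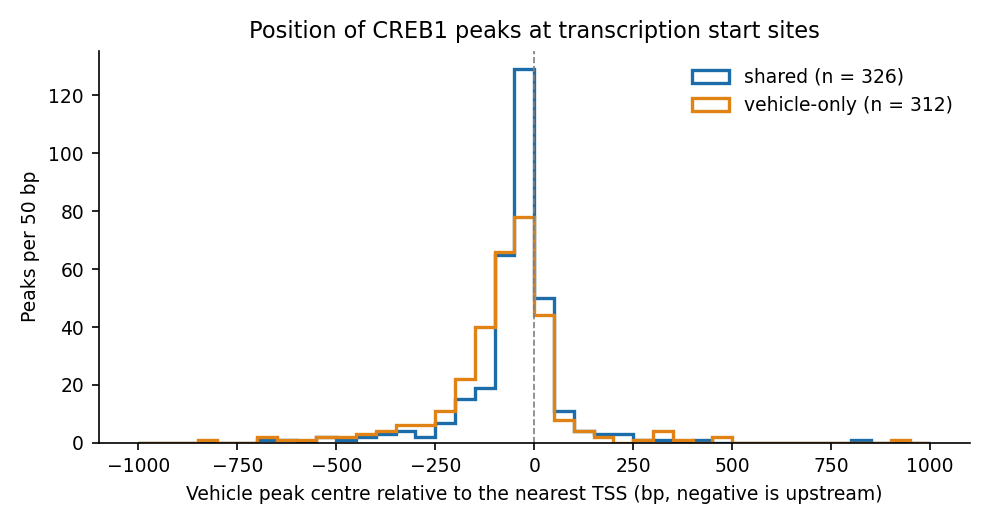
Number of sites per 50 bp by the distance of the vehicle peak centre to the nearest TSS (bp, negative upstream) for 326 shared and 312 vehicle-only sites. Both sets peak just upstream of the TSS, and shared sites gather more tightly there, with medians of -32.5 and -57 bp.

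Some shared sites lay near more than 1 gene. Starts of 2 or more protein-coding genes (or either end of a gene without a promoter window) lay within 1000 bp at 87 of 395 shared sites, 22.0% (18.2 to 26.4), and at 69 of 388 vehicle-only sites, 17.8% (14.3 to 21.9), intervals that overlap. By the TSS table alone this was so at 63 of 393 shared sites, 16.0% (12.7 to 20.0), and 57 of 385 vehicle-only sites, 14.8% (11.6 to 18.7). A divergent pair, with start sites on opposite strands facing away from each other, stood at 56 of 393 shared sites, 14.2% (11.1 to 18.1), and 50 of 385 vehicle-only sites, 13.0% (9.99 to 16.7). The closest pairs had their start sites 16 to 36 bp apart. They were Zcrb1 with Pphln1 at 16 bp, Eif2b1, a subunit of the exchange factor of translation initiation, with Gtf2h3, a TFIIH subunit, at 17 bp, and Abce1, a ribosome recycling factor, with Anapc10, a subunit of the anaphase-promoting complex, at 23 bp. Erg28 with Ttll5, Gstcd with the Integrator subunit gene Ints12, Mttp with Trmt10a, Coa5 with Unc50, and Dph3 with Oxnad1 followed at 27 to 36 bp. The Abce1 and Anapc10 site was 395 bp wide after dDAVP and 421 bp after vehicle and held 1 CRE. The Unc50 site, 280 bp after dDAVP and 382 bp after vehicle, held no half-site although the promoter windows covered all of it.

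Of the shared sites, 67 lay over 1000 bp from every TSS of the promoter table. Of these, 47 were within 1000 bp of an end of a protein-coding gene all the same, 13 within 1000 bp of an end of a noncoding gene, and 28 inside a protein-coding gene, counts that overlap. The 6 shared sites farthest from a protein-coding gene end were near Tiam1, Zfp958, Nlrp4f, Gpam, Chchd4 and Pisd, at 22202 to 47304 bp. The Gpam site lay 59 bp upstream of an alternative TSS inside the gene, and the Nlrp4f and Chchd4 sites lay 114 and 29 bp from an end of the noncoding genes Gm36445 and 1810044D09Rik. The Tiam1 site lay inside that gene, which encodes an exchange factor of the GTPase Rac, and was 178 bp wide after dDAVP and 222 bp after vehicle. A further 2 shared sites were on unplaced contigs and entered no gene count.

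Promoters at shared sites were rich in the CRE and its half-site. Of 453 promoter windows with a TSS within 1000 bp of a shared site, 110 held the CRE TGACGTCA, 24.3% (20.6 to 28.4). Of 428 windows at vehicle-only sites, 76 did, 17.8% (14.4 to 21.7), and of all 21263 windows 475 did, 2.23%. The half-site TGACG, which every CRE contains, was in 374 windows at shared sites, 82.6% (78.8 to 85.8), in 74.8% of those at vehicle-only sites (70.4 to 78.6) and in 23.6% of all windows. Some genes have several start sites, so windows of a gene can share sequence. Windows at shared sites had a median of 61.3% G and C and a ratio of observed to expected CpG of 0.91, against 61.7% and 0.87 at vehicle-only sites and 56.3% and 0.57 in all windows. Among the 10137 windows with a CpG ratio of 0.6 or more, called CpG-rich here, 3.72% held the CRE and 35.5% the half-site, both below the shares at shared sites.

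Shared sites also held more half-sites per window. Of windows at shared sites, 17.4% held none, 31.6% held 1, 28.3% held 2, 13.2% held 3 and 9.49% held 4 or more, a CRE counting as 2. At vehicle-only sites 0.943% held 4 or more, and in all windows 0.325% did. The Nup133 and Rpl34 windows shown above, with 5 and 4, were of this kind.

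Inside the windows, the CREs lay in the part that the peak covered. At shared sites, the vehicle peaks held 93 CREs in their part of the windows, 1.18 per kb, and the rest of the same windows held 1, 0.0312 per kb. The half-site stood at 7.11 per kb inside and 0.848 per kb outside the peaks. At vehicle-only sites the CRE stood at 1.17 per kb inside and 0.0608 per kb outside. The ETS motif CCGGAAG was also denser inside the peaks, at 1.52 per kb inside and 0.402 per kb outside at shared sites, and at 1.42 per kb inside and 0.763 per kb outside at vehicle-only sites. The NRF1-type motif GCATGCGC stood at 0.255 per kb inside and 0.0936 per kb outside shared peaks, from 20 and 3 matches. The GC box GGGCGG, the motif of SP factors, was no denser inside shared peaks (3.59 per kb) than outside them (4.41 per kb), while inside vehicle-only peaks it stood at 4.39 per kb, against 3.70 outside. The NF-Y motif CCAAT stood at 2.32 per kb inside and 2.18 per kb outside shared peaks, and at 4.08 inside and 2.01 outside vehicle-only peaks. All motifs were searched on both strands.

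A CRE lay in the windowed part of 87 of the 315 shared peaks that touched a window, 27.6% (23.0 to 32.8), and of 65 of 290 vehicle-only peaks, 22.4% (18.0 to 27.6). The windows covered 73.7% of the bases of such a shared peak in the median and 91.3% of a vehicle-only peak, so fewer of the shared peaks could be searched whole. Where the whole peak was covered, 13 of 34 shared peaks held a CRE, 38.2% (23.9 to 55.0), and 15 of 105 vehicle-only peaks, 14.3% (8.85 to 22.2). Windows were 300 bp long, and the median vehicle peak was 343 bp wide at shared sites and 244 bp at vehicle-only sites. A shared peak was thus covered whole only where it was no wider than a window or was spanned by several windows. The 34 are therefore a selected part of the shared peaks, and the part of this selection in the contrast was not tested. The CRE nearest to the centre lay a median of 15.5 bp from the dDAVP centre and 15.5 bp from the vehicle centre. It was within 50 bp of the dDAVP centre at 82 of 87 shared sites (94.3%) and of the vehicle centre at 79 (90.8%). At 86 of these 87 sites it lay inside the narrower dDAVP peak too. A half-site was in 275 of the 315 shared peaks, 87.3% (83.2 to 90.5), and in 230 of 290 vehicle-only peaks, 79.3% (74.3 to 83.6). No half-site was found in the covered part of 40 shared peaks, of which the windows covered a median of 55.7%, and this says nothing of the bases outside the windows.

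**Figure D3:**
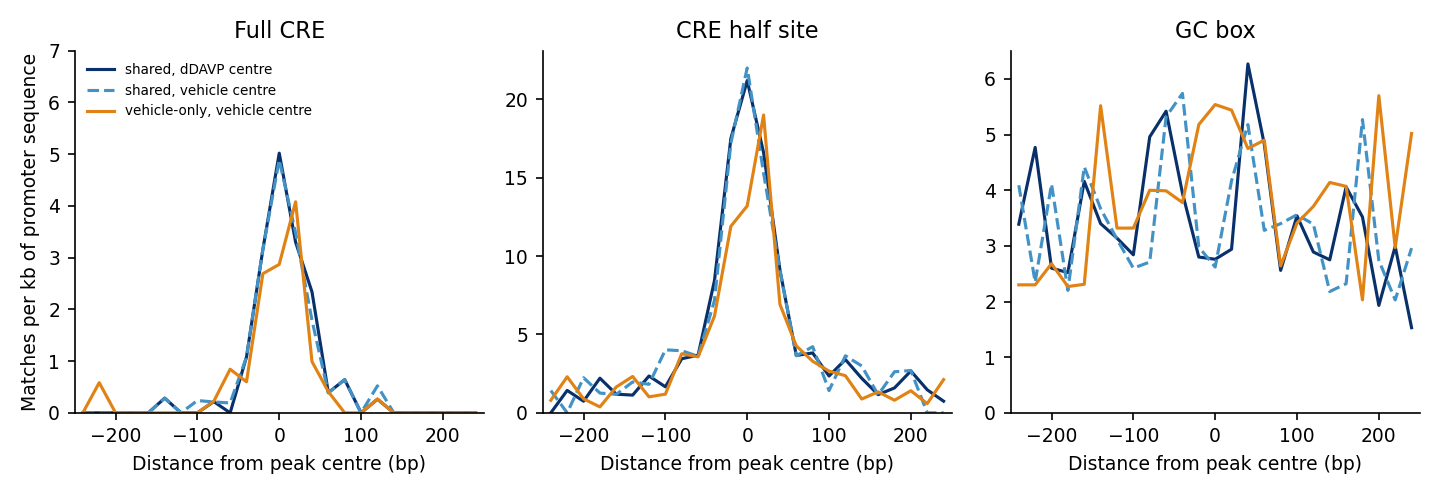
Matches per kb of promoter sequence in steps of 20 bp around the peak centre (x axis, bp) for the full CRE, the CRE half-site and the GC box, around dDAVP and vehicle centres of shared sites and vehicle centres of vehicle-only sites. The CRE and the half-site rise at the centre of shared peaks, to 5.02 and 21.2 per kb at dDAVP centres, and the GC box shows no such rise there at 2.76 per kb. Around vehicle-only centres the CRE and the half-site rise as well, to 4.08 and 19.0 per kb in the step from 10 to 30 bp. The GC box stands at 5.54 per kb at those centres.

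Vehicle peaks at shared sites were wider than vehicle-only peaks, so a fixed stretch of 101 bp around the vehicle centre was compared as well. Of 249 shared sites with that stretch inside a window, 74 held a CRE, 29.7% (24.4 to 35.7), and of 222 vehicle-only sites 49 did, 22.1% (17.1 to 28.0). The same stretch of all promoters, centred 43 bp upstream of the TSS, held a CRE in 1.56%. The half-site was in 211 of 249 shared stretches, 84.7% (79.7 to 88.7), in 156 of 222 vehicle-only stretches, 70.3% (64.0 to 75.9), and in 13.1% of all promoters. The NF-Y motif went the other way, with 22.1% (17.4 to 27.6) at shared sites, 34.7% (28.7 to 41.2) at vehicle-only sites and 20.4% in all promoters. The ETS motif CCGGAAG was in 19.3% of shared stretches, 15.3% of vehicle-only stretches and 6.51% of all promoters. In CpG-rich promoters the same stretch held the CRE in 2.55%, the half-site in 20.3%, the NF-Y motif in 21.4% and the ETS motif in 11.2%. These sequences were not part of the rule that chose the sites, but the intervals treat each site as a separate draw, and neighbouring genes and start sites share sequence.

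Over whole windows, the ETS motif was in 29.4% at shared sites, 26.9% at vehicle-only sites and 19.7% of CpG-rich windows (11.6% of all windows). The NF-Y motif was in 44.4% at shared sites, 50.0% at vehicle-only sites, 36.5% of CpG-rich windows and 38.2% of all windows. The GC box was in 65.1% of windows at shared sites, 66.8% at vehicle-only sites, 74.1% of CpG-rich windows and 46.2% of all windows. The E-box CACGTG was in 13.5% at shared sites, 11.7% at vehicle-only sites, 11.4% of CpG-rich windows and 7.84% of all windows. The NRF1-type motif GCATGCGC was in 5.52% at shared sites, 3.74% at vehicle-only sites, 6.39% of CpG-rich windows and 3.52% of all windows. The TATA motif TATAAA was in 4.86% of windows at shared sites, 7.01% at vehicle-only sites, 5.58% of CpG-rich windows and 12.6% of all windows. The AP-1 motif TGACTCA was in 3.53% at shared sites, 2.34% at vehicle-only sites, 2.47% of CpG-rich windows and 4.66% of all windows. The ZBTB33-type motif CTCGCGAG was in 1.32% of windows at shared sites, 1.40% at vehicle-only sites, 2.43% of CpG-rich windows and 1.24% of all windows. The C/EBP palindrome TTGCGCAA was in 0.662% of windows at shared sites, 0.701% at vehicle-only sites, 0.335% of CpG-rich windows and 0.221% of all windows. The composite C/EBP-ATF motif TGATGCAA was in 0.221% at shared sites, 0.234% at vehicle-only sites, 0.316% of CpG-rich windows and 0.865% of all windows. A match is a description of the letters, not a site of the factor.

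Some 8-base forms that begin with the half-site were more frequent than others. Read on the strand where it starts with TGACG, the full palindrome TGACGTCA was the most frequent 8-base form, in 87 of 315 shared peaks. TGACGCCA was in 25 shared peaks and 16 of 290 vehicle-only peaks. TGACGCAA was in 24 shared peaks (7.62%) and 6 vehicle-only peaks (2.07%), beside 0.644% of all windows. TGACGACA, the form seen in the Fos and Pcna promoters above, was in 22 shared peaks (6.98%) and 4 vehicle-only peaks (1.38%), beside 0.470% of all windows. TGACGTAA was in 20 shared peaks and 16 vehicle-only peaks. These forms were singled out after their counts were seen.

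Most promoters with a CRE had no CREB1 vehicle peak. Of the 475 windows with a CRE, 110 lay at a shared site, 23.2% (19.6 to 27.2), 76 at a vehicle-only site, 16.0% (13.0 to 19.6), and 289 at no CREB1 vehicle peak, 60.8%. CRE windows of Dusp1, Ldha, Sst and Th, genes known as CREB targets in other cells, were among those with no vehicle peak (they were picked after the fact). CpG content went with occupancy. Of 377 CpG-rich CRE windows 107 were at a shared site, 28.4% (24.1 to 33.1), and of 98 CRE windows with a lower CpG ratio 3 were, 3.06% (1.05 to 8.62). The share also varied with the place of the CRE in the promoter. Among CpG-rich windows, 82 of 263 with the CRE 1 to 100 bp upstream of the TSS were at a shared site, 31.2% (25.9 to 37.0), and 13 of 78 with the CRE farther upstream were, 16.7% (10.0 to 26.5), intervals that overlap at their ends. With the CRE downstream of the TSS, 12 of 36 were, 33.3% (20.2 to 49.7).

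The number of CREs in a window went with a shared site as well. Of 13 windows with 2 or more CREs, 8 were at a shared site, 61.5% (35.5 to 82.3), and of 462 windows with 1 CRE, 102 were, 22.1% (18.5 to 26.1). All 13 were CpG-rich, with ratios of 0.68 to 1.24, while the 462 included all 98 CRE windows with a lower ratio. The part of CpG content in this contrast was not tested. Over all 377 CpG-rich CRE windows the share was 28.4%. Those 8 windows belonged to 6 shared sites, since Larp7 and Zgrf1 have their windows at the same site and so have Chpf and Tmem198. The others were H4c1, Lekr1, Nup133 and Ralgapa1. Among CpG-rich windows with no CRE, 16.2% of 736 with 2 or more half-sites were at a shared site (13.7 to 19.0), 5.48% of 2483 with 1 half-site (4.65 to 6.44) and 0.963% of 6541 with none (0.754 to 1.23). Over all 21263 windows the share was 2.13%.

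**Figure D4:**
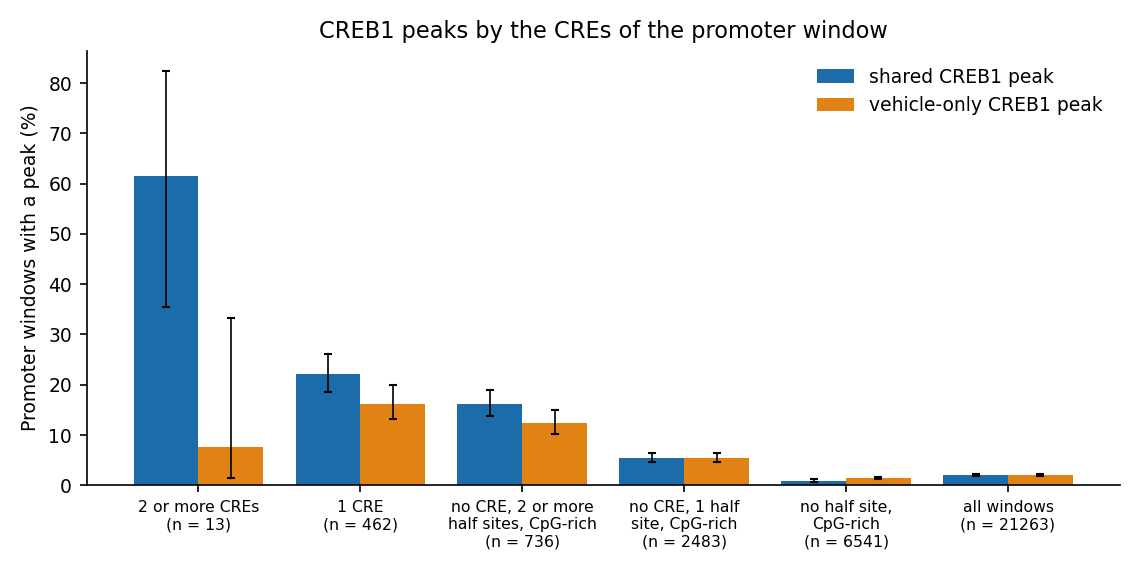
Percentage of promoter windows at a shared site and at a vehicle-only site (bars, with Wilson 95% intervals) by the number of CREs and half-sites in the window, with the number of windows under each class. Shared sites took 61.5% of windows with 2 or more CREs and 0.963% of CpG-rich windows with no half-site. The class with 1 CRE takes in windows of every CpG content, and the classes without a CRE are CpG-rich alone.

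Some shared sites overlapped a C/EBP beta peak. A peak of the C/EBP beta dDAVP list, which held 2401 peaks, overlapped 19 of 397 shared sites by at least 1 bp, 4.79% (3.09 to 7.35), and 30 of 388 vehicle-only sites, 7.73% (5.47 to 10.8). These intervals overlap, and the share over all 785 vehicle peaks was 6.24%. By distance and not by overlap, 502 of all 21263 promoter windows had a TSS within 1000 bp of the centre of a C/EBP beta dDAVP peak. The C/EBP beta vehicle list, which held 209 peaks, overlapped 1 shared site, at Man1b1, and 4 vehicle-only sites. Of the 67 shared sites away from a listed TSS 3 overlapped a C/EBP beta peak, and of 73 such vehicle-only sites 13 did. Among the 15 shared sites with the longest overlap, that at Csnk1g2 had 361 bp in common with a C/EBP beta dDAVP peak, followed by 354 bp at Tomm6, a subunit of the mitochondrial import complex, 352 bp at Qtrt2, a subunit of the queuine tRNA enzyme, and 346 bp at Ssu72, a phosphatase of the RNA polymerase II tail. The authors' score of the C/EBP beta dDAVP peak, which ranks peaks within that list, was 1474 at Man1b1, an alpha-mannosidase, 1396 at Tomm6, 1096 at Csnk1g2 and 902 at Gtf2f1, a TFIIF subunit. It was 79 at Oaz1 and 86 at Pi4k2a. The 15 also held Usp36, Ap5s1, Rps6kb2, Tiam1, Abcf2, Ddx49 and Dnajb9, a cochaperone of the endoplasmic reticulum.

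The listed gene families together held 97 of the 448 genes at shared sites, so most of these genes belonged to no listed family. All family shares below are to be read against the 2.07% of protein-coding genes with an end within 1000 bp of a shared site. Both count by gene ends. A shared site at a TSS over 1000 bp from both ends of its gene was thus not counted for that gene. That background takes in promoters of every CpG content, and none matched for CpG content was computed. The median CpG ratio was 0.91 in windows at shared sites and 0.57 in all windows. How far promoter CpG content goes with the family shares was not tested. Families were given by gene symbols, and both the families and the sites were chosen with earlier results of these data known, so no test is attached. Genes that stand at the same site, such as Trmt2a and Ranbp1, Trmt5 and Slc38a6, Mrpl47 and Ndufb5, or Rpl4 and Snapc5, are counted in each family although they rest on 1 site.

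In RNA metabolism, 7 of 48 tRNA modification enzymes had a shared site, 14.6% (7.25 to 27.2), and 3 a vehicle-only site. Among them were the tRNA methyltransferase genes Trmt10a, Trmt5, Trmt2a, Trmt44 and Trmt61a. Trmt44 had a site of 301 bp after dDAVP and 319 bp after vehicle, and Trmt61a one of 248 bp after dDAVP and 295 bp after vehicle. Among splicing factors 11 of 92 had a shared site, 12.0% (6.81 to 20.2), and 9 a vehicle-only site. They included Sf1, Snrpc of the U1 particle, U2af1, which recognises the end of the intron, and Tra2b. The site at Sart3, a recycling factor of the spliceosome, was 295 bp wide after dDAVP and 419 bp after vehicle. Of DEAD and DEAH box helicases, which remodel RNA, 6 of 52 had a shared site, 11.5% (5.40 to 23.0), and 4 a vehicle-only site, with Ddx49 the widest at 410 bp after dDAVP and 481 bp after vehicle. At Ddx27 both peaks were 325 bp wide.

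Nuclear pore and transport proteins had a shared site in 9 of 65 genes, 13.8% (7.46 to 24.3), and a vehicle-only site in 1. The 9 were Tpr, Ranbp2, Nup133, Nup214, Nup153, Ranbp1, Ranbp6, Nupl2 and Nup155. Ranbp2, a protein of the cytoplasmic filaments of the pore, had a site of 439 bp after dDAVP and 458 bp after vehicle. At Nup214, a further protein of the cytoplasmic face, the site was 352 bp wide after dDAVP and 410 bp after vehicle and held a CRE. Of the 9, Nup133, Nup214, Ranbp6 and Nupl2 had a CRE in the searched part of the peak.

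In transcription, 7 of 58 general transcription factors and TBP-associated factors had a shared site, 12.1% (5.97 to 22.9), and 8 a vehicle-only site. Among the 7 were Gtf2h3, Gtf2f1, Taf13 and Bdp1, a subunit of the RNA polymerase III factor TFIIIB. Taf11 was not among the 7, although it had a TSS within 1000 bp of a shared site that held a CRE. Of 33 Mediator subunits 4 had a shared site, 12.1% (4.82 to 27.3), namely Med20, Med6, Med27 and Med9, and 1 a vehicle-only site. The Med20 site was 314 bp wide after dDAVP and 420 bp after vehicle, and the Med6 site 293 bp after dDAVP and 338 bp after vehicle. A single RNA polymerase subunit gene of 31, Polr2k, had a shared site, and 2 had a vehicle-only site.

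In translation, 8 of 83 cytosolic ribosomal protein genes had a shared site, 9.64% (4.97 to 17.9), and 5 a vehicle-only site. They were Rpl9, Rpl21, Rpl24, Rps29, Rpl34, Rpl23, Rpl4 and Rpl41. The Rpl9 site was 367 bp wide after dDAVP and 438 bp after vehicle and held 4 half-sites. The only CRE found at these 8 was at the Rpl4 site, which lay 734 bp from an end of Rpl4 and 1 bp from an end of Snapc5. Rpl18, not among the 8 by gene end, also had a promoter window with a CRE at a shared site. Mitochondrial ribosomal protein genes had a shared site in 4 of 78, 5.13% (2.01 to 12.5), with Mrpl2 at 416 bp after dDAVP and 457 bp after vehicle. Initiation factors had one in 2 of 55 (Eif2b1 and Eif4a1) and tRNA synthetases in 1 of 34 (Aars), shares of 3.64% and 2.94% whose intervals include the background. The tRNA synthetase gene Eprs was not counted by gene end. It had a shared site 89 bp upstream of a TSS and 1538 bp from the nearest gene end, 381 bp wide after dDAVP and 468 bp after vehicle. Vehicle-only sites stood at 3 initiation factor genes, 1 tRNA synthetase gene and 2 mitochondrial ribosomal protein genes.

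In the cell cycle, 3 of 27 cyclin genes had a shared site, 11.1% (3.85 to 28.1). A vehicle-only site stood at 1. The 3 were Ccnk and Ccnt1, partners of kinases that act on RNA polymerase II, and Ccna2, cyclin A2, whose site lay inside the gene, 982 bp from its end, and was 259 bp wide after dDAVP and 322 bp after vehicle. Of 49 DNA replication genes 4 had one, 8.16% (3.22 to 19.2), and 3 a vehicle-only site. The 4 were Rfc4 of the clamp loader, Pcna, the helicase subunit gene Mcm5 and Rrm1, a subunit of ribonucleotide reductase. The Mcm5 site held a CRE and was 164 bp wide after dDAVP and 300 bp after vehicle. Heat shock proteins and DnaJ cochaperones had a shared site in 5 of 71, 7.04% (3.05 to 15.4), and a vehicle-only site in 5. NADH dehydrogenase genes had a shared site in 3 of 49, 6.12% (2.10 to 16.5), and a vehicle-only site in 2.

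**Figure D5:**
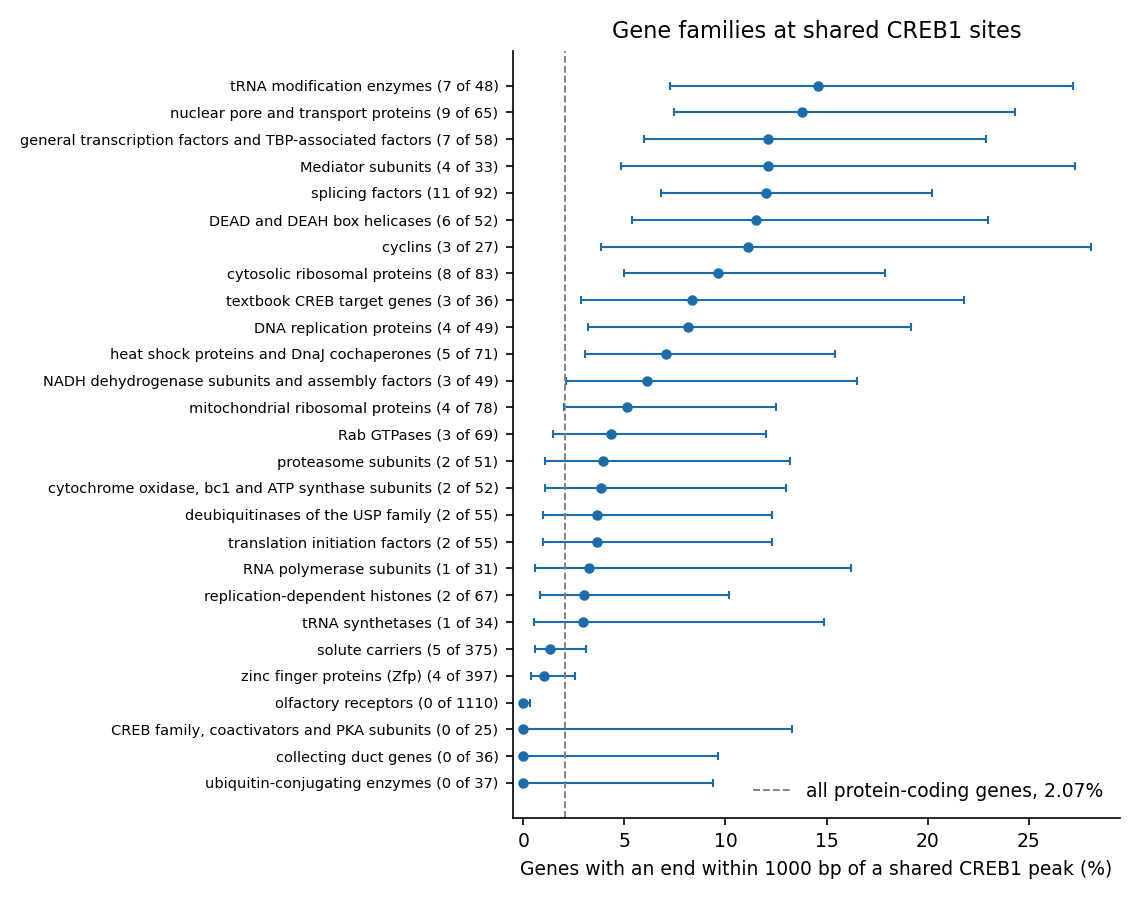
Percentage of the genes of each family with an end within 1000 bp of the centre of a shared site (points) with Wilson 95% intervals (lines); the count and the size of the family stand beside its name, and the dashed line marks all protein-coding genes at 2.07%. The tRNA modification enzymes stand highest at 14.6% and the olfactory receptors at 0%.

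Genes of the vasopressin pathway itself are given next, in lists too short for a count of 0 to lie below the background of 2.07%. Of 36 collecting duct genes, such as the water channel gene Aqp2, none had a shared or a vehicle-only site (upper bound 9.64%), and the shared site nearest to an end of Aqp2 was 504118 bp away. Of 25 genes of the CREB family, its coactivators and the subunits of protein kinase A, none had a shared site (upper bound 13.3%) and 3 had a vehicle-only site. The Creb1 gene had a vehicle-only peak, 269 bp wide, 99 bp from an end of the gene, and Crebbp, which encodes CBP, was 3481 bp from the nearest shared site. Of 36 textbook CREB target genes, Fos, Pcna and Ccna2 had a shared site, 8.33% (2.87 to 21.8), and 5 had a vehicle-only site. Per1, a clock gene, was among the genes with a vehicle-only peak, 442 bp wide. Whether a peak that is missing from the dDAVP list was unbound after dDAVP cannot be told from the lists.

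None of 1110 olfactory receptor genes had a shared site (upper bound 0.345%), below the 2.07% of all protein-coding genes. Zinc finger genes of the Zfp family had one in 4 of 397, 1.01% (0.392 to 2.56), and 9 had a vehicle-only site. Solute carriers, the transporters of ions and metabolites, had one in 5 of 375, 1.33% (0.571 to 3.08), and 3 had a vehicle-only site. For both families the interval includes the background. The 5 solute carriers were Slc25a3, the mitochondrial phosphate carrier, Slc35e1, Slc35b1, Slc38a6 and Slc25a16. None of 37 ubiquitin-conjugating enzyme genes had a shared or a vehicle-only site (upper bound 9.41%). The remaining families had 0 to 3 genes at shared sites, with intervals that include the background. Rab GTPases by symbol had a shared site in 3 of 69 (Rab5a, Rab40c and the effector gene Rab11fip3), 4.35%, and a vehicle-only site in 8, 11.6%. Proteasome subunits had a shared site in 2 of 51 (Psme3 and Psmb2) and a vehicle-only site in 3. USP deubiquitinases had a shared site in 2 of 55 (Usp20 and Usp36) and a vehicle-only site in 1. Subunits of cytochrome oxidase, bc1 and ATP synthase had a shared site in 2 of 52 (Cox8a and Cox18) and a vehicle-only site in 3. Of 67 replication-dependent histones 2 had a shared site (H4c1 and H3c1, at the same one) and 2 a vehicle-only site, and of 10 casein kinases 1 had a shared site (Csnk1g2). The 8 RFX factor genes had none by gene end, as the Rfx1 site lay at an alternative TSS.

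Like vehicle-only sites and C/EBP beta dDAVP peaks, shared sites were spread unevenly over the chromosomes. Chromosome 12 had 32 shared sites for 679 protein-coding genes, 4.71 per 100 genes, beside 21 vehicle-only sites and 153 C/EBP beta dDAVP peaks. Chromosome 19 had 29 for 705 genes, 4.11 per 100, beside 20 vehicle-only sites and 132 C/EBP beta dDAVP peaks. Chromosome 7 had 6 for 2030 genes, 0.296 per 100, beside 15 vehicle-only sites and 62 C/EBP beta dDAVP peaks. Vehicle-only sites and C/EBP beta dDAVP peaks were thus also dense on chromosomes 12 and 19 and sparse on chromosome 7, relative to the number of genes. The X chromosome had 0 shared and 0 vehicle-only sites for 966 genes and 13 promoter windows with a CRE, where a count of 0 among 397 sites allows a share of up to 0.756%, reckoned as 3 counts of the total and not as a Wilson bound. The C/EBP beta dDAVP list had 20 peaks on X, so the chromosome was not missing from the mapping of that list. Which genes of a chromosome are active in these cells was not measured here.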

How the data were processed

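The 22 samples of the series comprised 12 immunoprecipitated and 10 input libraries, and were grouped by antibody and treatment from their titles. The submitters' processing notes name mm10 as the build and bedtools, BWA, MACS2 and SAMtools as tools, without versions or roles. Deposited CREB1 peaks had only a position. Those of C/EBP beta had, in addition, the authors' score for each peak, deposited without a stated scale, and per the peak names in the deposited lists MACS2 was run on replicate 1 with a bandwidth of 300, 1 duplicate and q of 0.01. How replicates were combined is not given in the sources used here. No read counts were used here, so depth is unknown.

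From these lists, overlaps, widths, distances and motif matches were computed with Python 3.11.15, pandas 2.3.3, numpy 2.4.6 and scipy 1.17.1, after the code was tested on simulated peaks and sequences. Positions count from 1. Genes came from RefSeq tables on GRCm38.p6, with 21631 protein-coding genes on chromosomes 1 to 19 and X and 21263 promoter windows of 300 bp for 17492 protein-coding genes, none on chromosome 18. No genome was used, so only peak bases within promoter windows were searched. Exons and introns were not told apart. Of the windows, 4 lay within 1000 bp of both a shared and a vehicle-only site and count as shared in the occupancy classes.

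The members, the gene families and the rule for named genes were chosen with earlier results of these data known. The rule named the 12 widest and 4 narrowest shared sites at a gene start, the 15 with the longest C/EBP beta overlap and the 12 widest with a CRE in the window. It also named the 8 closest divergent pairs, up to 4 genes per family by width, and the 5 smallest and 5 largest width ratios. The 3 sites just inside and the 3 just outside the overlap rule, the 6 sites farthest from a gene end, and Fos, Pcna, Ccna2, Creb1, Per1, Crebbp, Rfx1 and H4c1 were named too. Where a family had over 4 genes at shared sites, or a window of 2 CREs was listed, the further names were added after their values were seen. No test was run, since peaks of 1 list are not replicates and the rule used the contrast of the treatments.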

Additional observations from a re-analysis of the deposited data

How the results depend on the processing

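The number of shared sites was 396 when the overlap had to reach 50% of the shorter peak and 373 with 50% of both peaks. It was 319 among the 394 vehicle peaks of at least the list's median width of 290 bp. The other 75 of these wide peaks were vehicle-only, so being shared went with width. The share of shared sites at a gene start was 96.5% within 5000 bp and 88.4% with either end of any protein-coding gene in place of the TSS, against 93.9% as reported. The reported measure took the TSS where the promoter table gives it and either gene end otherwise. The share with 2 or more genes was 30.4% within 5000 bp, against 22.0%. The share that overlapped a C/EBP beta peak was 0.252% with the vehicle list alone, against 4.79%. The share of promoters with a CRE was 82.6% when the half-site counted instead, against 24.3% of 453 promoter windows. Counted by site and not by window, a CRE lay in the 101 bp around the peak centre at 29.7% of 249 sites. Wider distances, a shorter motif and a shorter list give these shifts by construction; for the gene end and the centre stretch the cause was not tested. The gene end and the 2 searches of peak bases were alternatives chosen after seeing the data, and these searches stand in for a planned search of whole peaks, which was not run since no genome was used. The other alternatives stayed within the interval of the reported share.

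No paired analysis was possible because each group has 1 peak list with no replicate columns, and for the same reason no replicate could be left out. At vehicle peaks of at least the median width, the CRE share of promoters was 22.0% at shared sites and 15.1% at vehicle-only sites. Depth limits all presence calls by an unknown amount.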
